A study of Mus musculus with 9 samples.

Results

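The genes described here are 40 genes of the G2 phase and of mitosis, taken as a list of names and not by a threshold on their values. They were looked up among the probes of a mouse expression array by gene symbol or older symbol (Cdk1 is listed as Cdc2a), and all 40 were found, on 74 probes. On 3 or more of the 9 arrays, 38 of the genes had a probe well above background, and these were tested, among 24891 genes tested in all. The 2 others were Aurkb, the kinase of the chromosomal passenger complex, and Bub1, a spindle checkpoint kinase. Aurkb was well above background only on SVZ Sox2-GFP replicates A and B and Bub1 only on SVZ Sox2-GFP replicate B, so neither is compared between groups.

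Cells of 3 groups were sorted by fluorescence from the brains of reporter mice aged 6 to 8 weeks, with no treatment named, and each group was measured on 3 one-colour Agilent arrays. Sox2-GFP mice make green fluorescent protein from the Sox2 promoter, active in neural stem and progenitor cells, and DCX-DsRed mice make a red one from the promoter of Dcx, a microtubule gene of newborn neurons. The groups were hippocampus Sox2-GFP, hippocampus DCX-DsRed and Sox2-GFP from the subventricular zone (SVZ), the neurogenic region along the lateral ventricle. Tissue of 10 dissections was pooled for an experiment, and the RNA of 1000 sorted cells was amplified for each array. Levels are log2 signals with the 75th percentile of the array set to 0, so that a difference of 1 is a factor of 2. Values on the 3 arrays of a group are given in the order of replicates A, B and C. Each probe is set only against itself on other arrays.

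A dividing cell builds up cyclin B in G2, and its kinase partner CDK1 then drives chromosome condensation, spindle assembly and, once the checkpoint is satisfied, separation by the anaphase-promoting complex. Messenger RNAs of these proteins are made in G2 and mitosis and are held low in resting cells, in part through a promoter element called the cell cycle genes homology region (CHR). In the adult brain most stem cells rest, and the transit-amplifying progenitors that descend from them divide, as do some young neuroblasts. In RNA from sorted pools, fewer dividing cells and less RNA per cell cannot be told apart.

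One array and the markers of the sorted cells bear on all values below. Hippocampus Sox2-GFP replicate C correlated with replicates A and B at r = 0.816 and 0.783 across genes, against 0.919 between A and B, so counts and medians are also given without it, and so are named differences that it moves by more than 1.5 times or turns, chosen after seeing the data. The mRNAs of the reporter genes did not separate the groups by limma (adjusted p from 0.327 to 0.941 for Sox2 and Dcx in the 3 comparisons). Neurod1, a defining gene of newborn neurons, was above background on 0 of the 9 arrays. Dlx1 and Dlx2 of transit-amplifying progenitors were above it on fewer than 3. For all 7 tested newborn neuron genes, DCX-DsRed had the higher mean of the hippocampal groups (median of Sox2-GFP minus DCX-DsRed -1.02). Against DCX-DsRed, 4 of these 7 stood higher in the SVZ (median 0.02). All 5 tested transit-amplifying genes were higher in SVZ than in hippocampus Sox2-GFP (median 0.31). In the hippocampus, 4 of those 5 were higher in Sox2-GFP (median 0.03). Limma called 0 genes of either list. The choroid plexus list (6 of 7 genes tested) had a summed level of 5.40 to 7.08 in hippocampus Sox2-GFP, 0.33 to 0.96 in DCX-DsRed and 0.59 to 1.25 in SVZ Sox2-GFP. The ependymal list (5 of 6 tested) stood at 3.42 to 4.14, -1.62 to -0.45 and 0.11 to 1.60 in the same order, and the list of myelinating oligodendrocytes (8 of 8) at 0.86 to 5.28, 7.91 to 8.25 and 4.40 to 6.27. Arrays also differed by slide, and slide 2 held only hippocampus Sox2-GFP replicates A and B. The part of these differences in the results below was not tested.

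Over all arrays, the mitosis and G2 genes stood lowest, as a set, in hippocampus Sox2-GFP cells and highest in SVZ Sox2-GFP cells. The mean was in the order SVZ Sox2-GFP, DCX-DsRed, hippocampus Sox2-GFP for 19 of the 38 genes, an order held by 15.9% of all genes tested. Another 9 had SVZ Sox2-GFP first and DCX-DsRed last, and for 7 DCX-DsRed was first and hippocampus Sox2-GFP last. For 3 genes, Bub3, Cdc20 and Kif2c, the order was DCX-DsRed, hippocampus Sox2-GFP, SVZ Sox2-GFP. Hippocampus Sox2-GFP had the highest mean for 0 of the 38, while 13.8% and 16.8% of all genes had the 2 orders that it leads. With hippocampus Sox2-GFP replicate C left out, the first order held for 13 of the 38 (11.1% of all genes), and hippocampus Sox2-GFP led for 3 (35.4% of all genes). The order SVZ Sox2-GFP, hippocampus Sox2-GFP, DCX-DsRed then held for 12 (17.0% of all genes). Which hippocampal group stood lowest thus depended in part on that replicate. No single gene of the 38 passed the test in any comparison, so neighbours in these orders are not shown to differ for any one gene.

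**Figure D1:**
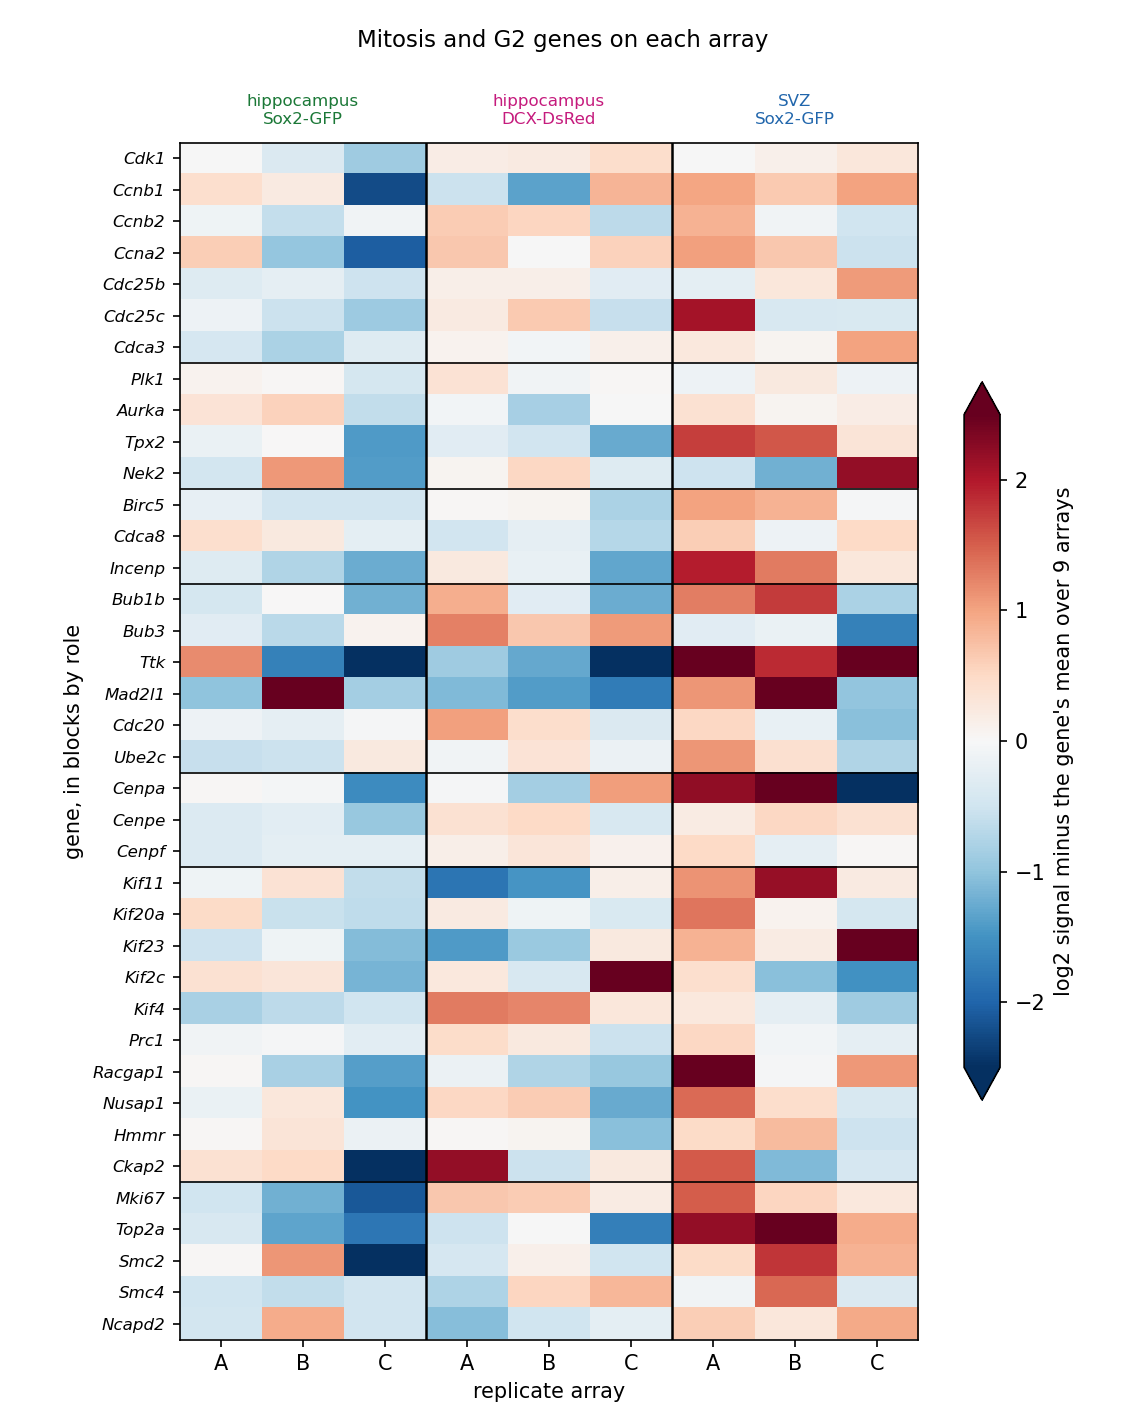
Heat map of the 38 tested genes (rows, in blocks by role) on the 9 arrays (columns, by group and replicate), with colour for the log2 signal minus the gene's own mean over the 9 arrays. Columns of SVZ Sox2-GFP replicates A and B are mostly red, while that of SVZ replicate C has a median of -0.004. Hippocampus Sox2-GFP replicate C is mostly blue and was the lowest array for 17 of the 38 genes.

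The arrays within a group were not alike. The median deviation of the 38 genes from their own means was -0.14, -0.22 and -0.87 on hippocampus Sox2-GFP arrays, 0.11, -0.01 and -0.30 on DCX-DsRed replicates and 0.86, 0.28 and -0.004 on SVZ replicates. SVZ replicate A was thus the highest array and hippocampus Sox2-GFP replicate C the lowest, and SVZ replicate C lay within the range of the DCX-DsRed arrays. The highest array of a gene was an SVZ Sox2-GFP array for 30 of the 38 (34.9% of all genes), a DCX-DsRed array for 7 and a hippocampus Sox2-GFP array for 1 (30.7% of all genes). Hippocampus Sox2-GFP replicate C was the lowest array for 17 of the 38 (44.7%), as it was for 32.0% of all genes.

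Across arrays the genes varied together more than genes did in general. Over the 9 arrays, which all pairs of genes share, the mean pairwise correlation was 0.283 for the 38 genes, 0.039 for all genes and 0.036 for 34 DNA replication genes. Without hippocampus Sox2-GFP replicate C these means were 0.168, 0.024 and 0.027, and after removal of the group means they were 0.197, 0.055 and 0.078. Set against the mean of the other members, 36 genes had a correlation above 0, with a median of 0.504 over the 38. The exceptions were Bub3 (-0.225), which holds checkpoint proteins at kinetochores, and Kif2c (-0.046), a kinesin that takes microtubule ends apart.

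The promoters of these genes shared letters that the choice of genes did not use. In windows of 250 bases before to 50 bases after the annotated start, from RefSeq on GRCm38.p6, an entry was found for 33 of the 40 genes. The CHR letters TTTGAA or TTCGAA, on either strand, occurred in 27 of the 33 (81.8%), against 21.7% of 27025 genes with an entry and 19.2% of all 32851 promoters. The letters CCAAT, a box bound by the factor NF-Y, occurred on either strand in 29 of 33 (87.9%), against 41.1% of genes and 37.4% of promoters. Both stood in 26 of 33 (78.8%), against 8.61% of genes and 7.52% of promoters. Among 28 DNA replication genes with an entry, 5 (17.9%) held the CHR letters and 17 (60.7%) CCAAT, so that the list of S phase genes was near all genes for the first and above them for the second. Among 63 further mitosis genes with an entry, 39 (61.9%) held the CHR letters and 40 (63.5%) CCAAT. A CHR and a CCAAT match can share at most 1 end base, and TTCGAA reads the same on both strands and was counted once. The 6 genes without the CHR letters were Ccnb1, Birc5, Cenpe, Nusap1, Nek2 and Mad2l1, which says only that these letters are not in this window.

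The promoters of 6 genes are printed to show the layout: those of Mki67, Top2a, Cdk1 and Ccnb1, the best known markers of dividing cells, and those of Cdc20 and Bub3, 2 of the 3 genes whose mean over all arrays was not higher in the SVZ. Each is the 150 bases before the annotated start on GRCm38.p6, 5′ to 3′ on the gene's strand, with CHR and CCAAT letters of either strand in capitals (on the other strand they read TTCAAA and ATTGG).
Mki67, chr7:135716380-135716529, minus strand: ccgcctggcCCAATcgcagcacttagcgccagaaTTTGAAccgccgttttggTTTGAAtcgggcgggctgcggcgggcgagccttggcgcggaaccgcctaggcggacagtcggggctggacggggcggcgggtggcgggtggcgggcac
Top2a, chr11:99024190-99024339, minus strand: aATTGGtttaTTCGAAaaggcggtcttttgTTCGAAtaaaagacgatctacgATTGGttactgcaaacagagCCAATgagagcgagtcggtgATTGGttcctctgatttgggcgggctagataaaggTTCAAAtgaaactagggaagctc
Cdk1, chr10:69352913-69353062, minus strand: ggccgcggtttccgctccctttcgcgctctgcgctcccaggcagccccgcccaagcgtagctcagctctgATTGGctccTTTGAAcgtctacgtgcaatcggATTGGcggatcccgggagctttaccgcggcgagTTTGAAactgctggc
Ccnb1, chr13:100786487-100786636, minus strand: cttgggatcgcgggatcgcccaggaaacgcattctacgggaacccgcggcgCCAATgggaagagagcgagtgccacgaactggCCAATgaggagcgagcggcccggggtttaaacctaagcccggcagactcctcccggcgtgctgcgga
Cdc20, chr4:118437344-118437493, minus strand: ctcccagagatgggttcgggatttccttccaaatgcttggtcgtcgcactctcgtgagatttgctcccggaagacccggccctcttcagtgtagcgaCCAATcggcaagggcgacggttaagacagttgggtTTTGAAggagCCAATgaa
Bub3, chr7:131560220-131560369, plus strand: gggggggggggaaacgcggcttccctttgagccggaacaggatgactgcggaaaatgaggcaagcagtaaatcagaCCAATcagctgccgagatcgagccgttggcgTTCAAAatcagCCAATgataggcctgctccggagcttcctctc
The Top2a stretch holds 3 CHR and 4 CCAAT matches, and that of Mki67 2 and 1. In Cdk1 there are 2 and 2, in Cdc20 and Bub3 1 and 2 each, and in Ccnb1 0 and 2. Bub3 has a further annotated start downstream that is not printed. Counted once per annotated start of the members with an entry, the 37 CHR matches, at 35 distinct sites, had a median position of -18 from the start, with 26 of them within 100 bases of it. The 69 CCAAT matches, at 66 distinct sites, had a median position of -71, with 46 within 100 bases. A match is a description of letters and not a measured site.

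The first comparison, between the regions, set SVZ Sox2-GFP cells against hippocampus Sox2-GFP cells. The mean was higher in the SVZ for 35 of the 38 genes (92.1%), against 54.4% of all genes, and the median difference was 0.88, against 0.07 for all genes. On 13 of the 38 each SVZ array read above each hippocampus array (8.83% of all genes), and on 0 it was the other way (8.1% of all genes). Limma called 0 of the 38 at an adjusted p under 0.05 (0.398% of all genes, 99 of them), and 10 had an unadjusted p under 0.05 with the SVZ higher (4.33% of all genes) and 0 with it lower (6.48%). Without hippocampus Sox2-GFP replicate C, 30 of the 38 were above 0 with a median of 0.49. Leaving out an array cannot make separate groups overlap, so the count of 13 genes could only stay or rise. It stayed at 13, while the share of all genes rose to 11.2%, with 0 in the other direction (15.3% of all genes). Within slide 3, where the hippocampus group is replicate C alone, 32 were above 0 with a median of 1.14 (59.6% and 0.26 for all genes). With slide as a block 33 were above 0 with a median of 1.13 (0.24 for all genes), and 3 genes, Ccnb1, Mki67 and Smc2, were called, among 2128 genes in all (8.55%).

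**Figure D2:**
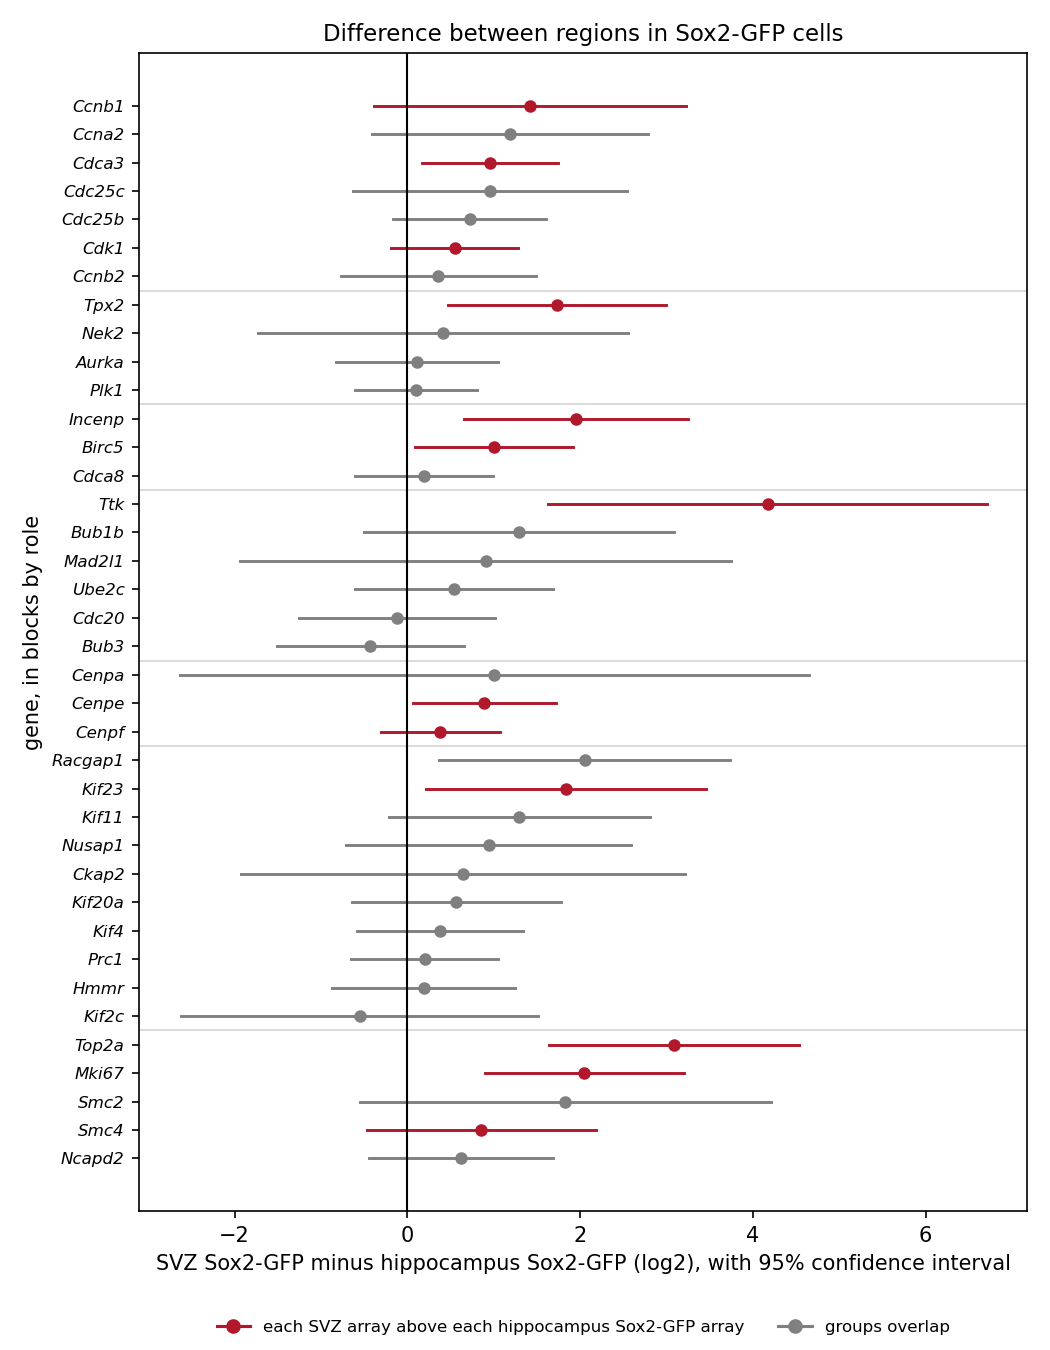
Difference between SVZ and hippocampus Sox2-GFP cells for the 38 genes, in blocks by role, on the log2 scale, as points with 95% confidence intervals from limma. Points lie right of 0 for 35 genes, and the 13 in red are those whose 3 SVZ arrays all read above the 3 hippocampus arrays.

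The second comparison, between the reporters in the hippocampus, set Sox2-GFP against DCX-DsRed. The mean was lower in Sox2-GFP cells for 29 of the 38 genes and higher for 9 (23.7%, against 46.2% of all genes), with a median difference of -0.36 against -0.08 for all genes. Hippocampus Sox2-GFP arrays all read below the DCX-DsRed arrays on 6 genes, Mki67, Cdk1, Bub3, Cenpf, Kif4 and Cdca3 (13.3% of all genes), and above them on 1, Mad2l1 (11.4%). Those shares, 15.8% and 2.63% of the 38, are near and below the background. Limma called 0 of the 38 (3.17% of all genes, 790 of them), and Mki67, Bub3 and Kif4 had an unadjusted p under 0.05 on the lower side (7.89% of the 38, against 8.63% of all genes), with 0 on the higher side (8.29%). With estimated array weights, which give replicate C of hippocampus Sox2-GFP the lowest weight, 6 members (15.8%) and 5517 genes (22.2%) were called. Without that replicate the median was -0.11 (0.05 for all genes) with 15 genes above 0. Groups then stood apart for 4 genes higher, Aurka, Tpx2, Cdca8 and Mad2l1 (21.7% of all genes), and for 7 lower (16.8% of all genes). Within slide 3, with 1 array a group, 10 genes were above 0 with a median of -0.44 (46.4% and -0.10 for all genes). With slide as a block 12 were above 0 with a median of -0.40 (-0.17 for all genes).

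The third comparison set SVZ Sox2-GFP against hippocampus DCX-DsRed and shares its arrays with the other two, so it is not independent of them. The SVZ mean was higher for 28 of 38 genes (73.7%, against 48.3% of all genes), with a median difference of 0.41 against -0.03 for all genes. SVZ arrays all read above DCX-DsRed arrays on 11 genes (28.9%, against 10.6% of all genes) and below on 2, Bub3 and Kif4 (10.4% of all genes). Limma called 0 of the 38 (1.55% of all genes, 385 of them). At an unadjusted p under 0.05 there were 9 higher (6.51% of all genes) and 2 lower (7.15%). Within slide 1, which holds DCX-DsRed replicates A and B and SVZ replicate A, 30 were above 0 with a median of 0.84 (48.9% and -0.02 for all genes). Within slide 3, 26 were above 0 with a median of 0.40 (56.8% and 0.14 for all genes). With slide as a block 29 were above 0 with a median of 0.57 (0.07 for all genes), and Tpx2 was called (3.19% of all genes). With slide as a random block Top2a, Tpx2 and Ttk were called (3.35% of all genes), and with array weights Kif11 and Kif4 (5.17%). Ttk was called with only the groups compared (1.94% of all genes) and without hippocampus Sox2-GFP replicate C (3.41%).

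**Figure D3:**
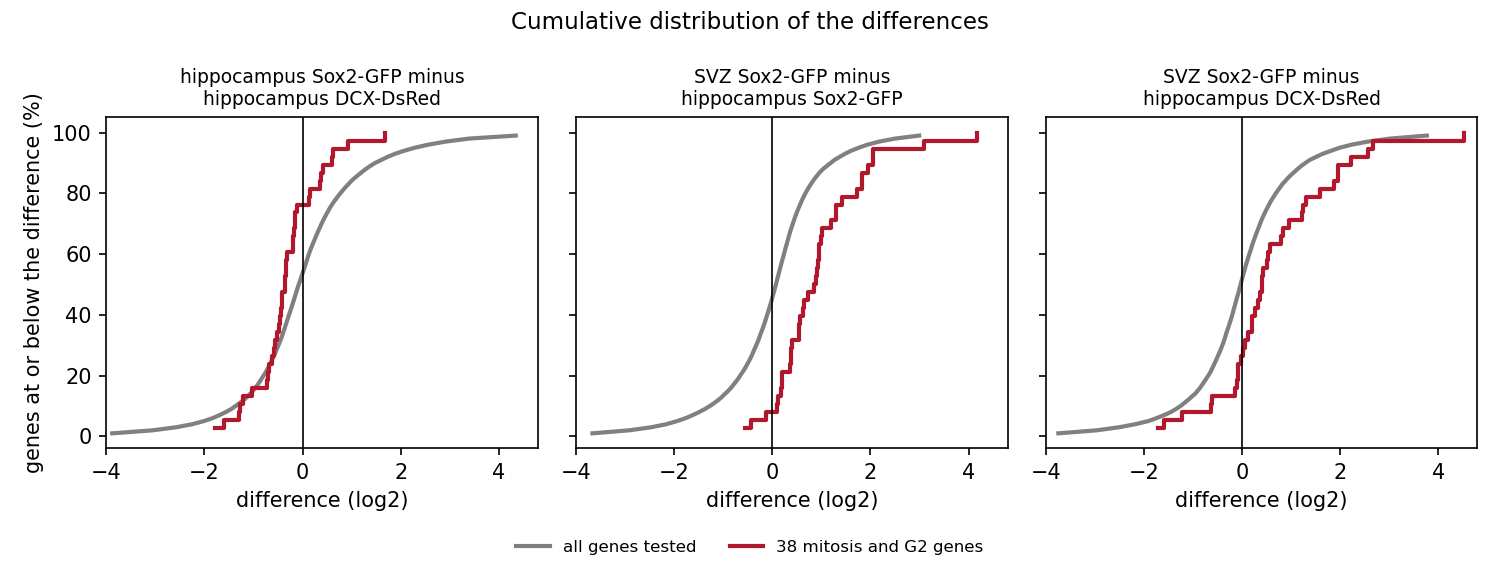
Cumulative share of genes (y axis, percent) at or below a given log2 difference (x axis) in the 3 comparisons, for all 24891 genes tested (grey, drawn at whole percentiles) and the 38 mitosis and G2 genes (red). In the region comparison the red curve lies right of the grey one, with medians of 0.88 and 0.07; in the hippocampal comparison the medians are -0.36 and -0.08.

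Chromosome structure genes had a median difference between regions of 1.83, with all 5 genes higher in the SVZ. The median was 0.88 when hippocampus Sox2-GFP replicate C was left out, again with 5 of 5 above 0, and the differences in Smc2 and Ncapd2 were then 0.49 and 0.38. Mki67 encodes Ki-67, which coats mitotic chromosomes and is the usual marker of dividing cells. It read 0.61, -0.10 and -1.01 on hippocampus Sox2-GFP arrays, 1.78, 1.75 and 1.32 on DCX-DsRed replicates, and 2.62, 1.64 and 1.38 on SVZ replicates. Each hippocampus Sox2-GFP array was below each array of the other groups, and DCX-DsRed and SVZ overlapped. The difference between regions was 2.05 (SE 0.50, adjusted p = 0.189), or 4.14-fold, and that between hippocampus Sox2-GFP and DCX-DsRed was -1.79 (SE 0.50, adjusted p = 0.11). Both missed the threshold here. A slide term in the fit gave an adjusted p of 0.0235 for the first (0.0235 to 0.394 over the alternatives), and array weights gave 0.02 for the second (0.02 to 0.285). A further Mki67 probe, well above background on all 9 arrays, gave 2.43 between the regions but -0.45 between the reporters. For SVZ minus DCX-DsRed it gave 1.98, against 0.26 on the probe used.

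Top2a, the topoisomerase that untangles sister chromatids, differed most between regions among the members well above background on all arrays. It read -2.83, -3.74 and -4.23 on hippocampus Sox2-GFP arrays, -2.95, -2.45 and -4.14 on DCX-DsRed replicates, and -0.235, 0.21 and -1.51 on SVZ replicates. All 3 SVZ arrays lay above all 6 hippocampal arrays, while the hippocampal groups overlapped. The SVZ mean was 3.09 above hippocampus Sox2-GFP (SE 0.63, adjusted p = 0.114, 8.53-fold) and 2.67 above DCX-DsRed (SE 0.63, adjusted p = 0.0954, 6.37-fold). The adjusted p ranged from 0.0559 to 0.567 and from 0.0341 to 0.473 over the alternatives. The 2 further Top2a probes gave 2.30 and 0.285 between the regions, the latter from a probe well above background on 4 arrays. Smc2, Smc4 and Ncapd2, subunits of condensin, differed between regions by 1.83, 0.86 and 0.62 (SE 1.04, 0.58 and 0.46). Further Ncapd2 probes, well above background on all 9 arrays, gave 2.68 and 0.785. Smc2 read -5.34 on hippocampus Sox2-GFP replicate C, against -1.85 and -0.775 on replicates A and B.

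**Figure D4:**
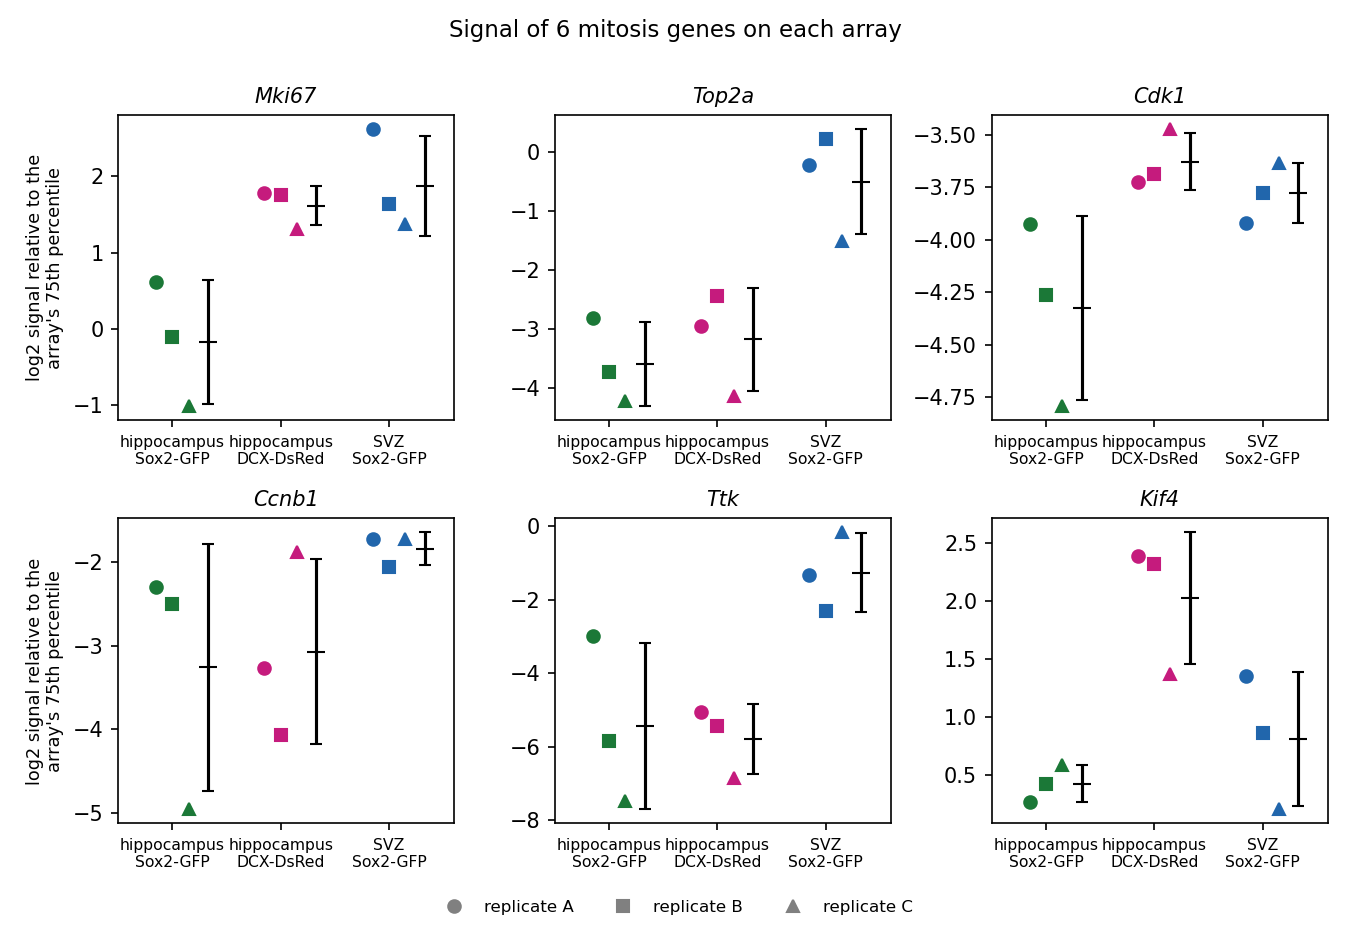
Log2 signal with the 75th percentile of the array at 0 (y axis) on each array for Mki67, Top2a, Cdk1, Ccnb1, Ttk and Kif4, by group (x axis), with a symbol for each replicate and, beside them, the mean and SD of the 3 arrays. Top2a and Ttk are highest on the 3 SVZ arrays, Mki67 is lowest on the 3 hippocampus Sox2-GFP arrays, and Kif4 is highest on the 3 DCX-DsRed arrays. The y axes differ between panels and do not start at 0.

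CDK1 and its regulators all had a higher mean in SVZ than in hippocampus Sox2-GFP cells (7 of 7, median difference 0.95) and, in the hippocampus, a higher mean in DCX-DsRed cells (7 of 7, median of Sox2-GFP minus DCX-DsRed -0.56). When hippocampus Sox2-GFP replicate C was left out, the first was 7 of 7 with a median of 0.57 and the second 6 of 7 with a median of -0.46, with Ccnb1 at 0.67. Cdk1, the kinase itself, read -3.92, -4.26 and -4.79 on hippocampus Sox2-GFP replicates, -3.73, -3.68 and -3.47 on DCX-DsRed replicates and -3.92, -3.78 and -3.63 on SVZ replicates. Hippocampus Sox2-GFP was below both other groups on every array, though its replicate A (-3.922) and SVZ replicate A (-3.918) all but coincided. The differences were 0.55 between regions (SE 0.32, adjusted p = 0.588) and -0.70 between reporters (SE 0.32, adjusted p = 0.322). A further Cdk1 probe, well above background on 6 arrays, gave 2.88 and -0.29. With normexp background correction the differences were 1.201 and 0.003, and without hippocampus Sox2-GFP replicate C they were 0.32 and -0.46.

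Ccnb1, cyclin B1, read -2.30, -2.51 and -4.96 on hippocampus Sox2-GFP arrays, -3.27, -4.07 and -1.88 on DCX-DsRed replicates and -1.73, -2.06 and -1.72 on SVZ replicates. SVZ arrays lay close together and above each hippocampus Sox2-GFP array, and DCX-DsRed replicate C reached into the range of the SVZ. The difference between regions was 1.42 (SE 0.79, adjusted p = 0.57), and a slide term in the fit made it 3.39 (adjusted p = 0.0413; 0.0413 to 0.893 over the alternatives). Without hippocampus Sox2-GFP replicate C the difference was 0.57. Further Ccnb1 probes, well above background on 4 and 6 arrays, gave 4.29 and 3.51, and the mean of the probes 3.07. Ccna2, cyclin A2 of S and G2 phase, read -2.49, -4.06 and -5.17, then -2.44, -3.11 and -2.53, then -2.09, -2.43 and -3.63 in the same order. Its groups overlapped in the region comparison (1.19, SE 0.70, adjusted p = 0.589) and in the hippocampal one (-1.21, SE 0.70, adjusted p = 0.43), and without hippocampus Sox2-GFP replicate C these were 0.56 and -0.58. With normexp background correction the hippocampal difference was -0.64. Of the other regulators, Ccnb2, Cdc25b, Cdc25c and Cdca3 differed between regions by 0.355 to 0.96. Cdca3, a factor in the entry into mitosis, had a mean of 0.11 ± 0.25 (SD, n = 3) in hippocampus Sox2-GFP, 0.66 ± 0.10 in DCX-DsRed and 1.06 ± 0.495 in SVZ cells. Hippocampus Sox2-GFP stood apart from both other groups on it.

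Among the 4 mitotic kinases and activator, Tpx2 had the largest difference between regions, and 0 were called. Their median difference was 0.26, and -0.11 without hippocampus Sox2-GFP replicate C. Tpx2, which brings Aurora A to the spindle and activates it, read -2.39, -2.20 and -3.64 on hippocampus Sox2-GFP replicates, -2.51, -2.71 and -3.47 on DCX-DsRed replicates and -0.49, -0.66 and -1.90 on SVZ replicates. All 3 SVZ arrays were above all 6 hippocampal arrays. The SVZ mean was 1.73 above hippocampus Sox2-GFP (SE 0.55, adjusted p = 0.313, 3.32-fold) and 1.88 above DCX-DsRed (SE 0.55, adjusted p = 0.165, 3.69-fold; 0.0428 to 0.522 over the alternatives).

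Aurka, the Aurora A kinase of the spindle poles, read -1.455, -1.23 and -2.405 on hippocampus Sox2-GFP, -1.87, -2.63 and -1.81 on DCX-DsRed and -1.42, -1.73 and -1.61 on SVZ replicates. SVZ arrays stood just above DCX-DsRed arrays and inside the range of hippocampus Sox2-GFP. The region difference was 0.11, with a 95% confidence interval of -0.83 to 1.05, and was -0.24 without hippocampus Sox2-GFP replicate C. Plk1, the polo-like kinase of mitotic entry, differed by 0.10 (interval -0.60 to 0.81), with a mean of 1.45 ± 0.29, 1.66 ± 0.24 and 1.55 ± 0.21 in hippocampus Sox2-GFP, DCX-DsRed and SVZ cells. Nek2, a kinase of centrosome separation, differed by 0.41 (SE 0.93, interval -1.73 to 2.55) with overlap of all groups. Without that array Plk1 stood at -0.06 and Nek2 at -0.16.

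The chromosomal passenger complex corrects faulty attachments of chromosomes to the spindle, and its 3 tested subunits had a median difference between regions of 1.00 (0.96 without hippocampus Sox2-GFP replicate C). Incenp, its scaffold, read -0.65, -1.10 and -1.57 on hippocampus Sox2-GFP replicates, -0.09, -0.52 and -1.63 on DCX-DsRed replicates and 1.63, 0.97 and -0.055 on SVZ replicates. SVZ arrays were above all hippocampal arrays, with SVZ replicate C (-0.055) and DCX-DsRed replicate A (-0.094) nearly equal. The SVZ mean was 1.96 above hippocampus Sox2-GFP (SE 0.56, adjusted p = 0.263, 3.88-fold) and 1.60 above DCX-DsRed (SE 0.56, adjusted p = 0.247). Birc5, or survivin, differed between regions by 1.00 (SE 0.40, adjusted p = 0.424), with no overlap. Cdca8, or borealin, read -0.08, -0.25 and -0.75, then -0.99, -0.72 and -1.205, then 0.12, -0.63 and 0.007 in the order of the groups above. DCX-DsRed was below the SVZ arrays on it, and SVZ and hippocampus Sox2-GFP overlapped (difference 0.19, SE 0.35; -0.004 without hippocampus Sox2-GFP replicate C). Further Cdca8 probes, well above background on 7 and 2 arrays, gave 5.82 and 3.56 between the regions, and the mean of the probes 3.005.

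Of 6 genes of the spindle checkpoint and the anaphase-promoting complex, 4 had a higher and 2 a lower mean in SVZ than in hippocampus Sox2-GFP. The median difference was 0.72. Without hippocampus Sox2-GFP replicate C the counts were again 4 and 2, with a median of 0.58. They were 3 and 3 without SVZ replicate B (median 0.16) and 6 and 0 without SVZ replicate C (median 1.51). Ttk, the kinase MPS1 that starts checkpoint signalling, read -2.985, -5.85 and -7.465 on hippocampus Sox2-GFP, -5.05, -5.44 and -6.86 on DCX-DsRed and -1.32, -2.30 and -0.17 on SVZ replicates. It was well above background on all 3 SVZ arrays but on only 1 hippocampus Sox2-GFP and 2 DCX-DsRed arrays, so the lower values are near the noise. SVZ arrays were above all others, with a mean 4.17 above hippocampus Sox2-GFP (SE 1.11, adjusted p = 0.228) and 4.52 above DCX-DsRed (SE 1.11, adjusted p = 0.104; 0.0385 to 0.414 over the alternatives). With normexp background correction these were 2.18 and 2.52.

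Mad2l1, the checkpoint protein MAD2, read -4.73, -1.09 and -4.57 on hippocampus Sox2-GFP, -4.83, -5.11 and -5.46 on DCX-DsRed and -2.61, -0.35 and -4.71 on SVZ replicates. One hippocampus Sox2-GFP and 2 SVZ arrays were far above the rest, and DCX-DsRed was lowest throughout. The hippocampal difference of 1.67 (SE 1.24, adjusted p = 0.548) was the only one among the 38 in which Sox2-GFP stood above DCX-DsRed without overlap. It was 0.88 with normexp background correction. Bub1b, the checkpoint protein BUBR1, differed between regions by 1.29 (SE 0.78) and Ube2c, the ubiquitin-conjugating enzyme of the anaphase-promoting complex, by 0.54 (SE 0.50), both with overlap.

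Bub3 and Cdc20, which binds and activates the anaphase-promoting complex, differed between regions by -0.43 and -0.12, but by 0.07 and 0.29 without SVZ replicate C. Without hippocampus Sox2-GFP replicate C the differences were -0.24 and -0.08. Both genes, like Kif2c and Cdca3, are named after their values were seen. Bub3 read -0.60, -0.999 and -0.23 on hippocampus Sox2-GFP, 0.94, 0.34 and 0.75 on DCX-DsRed and -0.60, -0.49 and -2.02 on SVZ replicates. Every DCX-DsRed array was above all others. Against DCX-DsRed, the hippocampus Sox2-GFP mean differed by -1.29 (SE 0.47, adjusted p = 0.213) and the SVZ mean by -1.71 (SE 0.47, adjusted p = 0.141). The 3 other Bub3 probes did not all share these signs, with 0.17, -1.13 and -2.45 for hippocampus Sox2-GFP minus DCX-DsRed and -0.95, 1.45 and -1.66 for SVZ minus DCX-DsRed. Between regions they gave -1.12, 2.58 and 0.79, against -0.43 on the probe used. Cdc20 had an SE of 0.49 for its region difference.

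Centromere and kinetochore genes were 3, all with a higher SVZ mean than in hippocampus Sox2-GFP. Cenpe, a kinesin that carries chromosomes to the spindle equator, read -0.64, -0.56 and -1.235 on hippocampus Sox2-GFP, 0.09, 0.21 and -0.69 on DCX-DsRed and -0.08, 0.23 and 0.09 on SVZ replicates. SVZ was above hippocampus Sox2-GFP on each array (difference 0.89, SE 0.36, adjusted p = 0.432) and overlapped with DCX-DsRed. Cenpa, the histone of centromeres, read -4.32, -4.41 and -5.935, then -4.39, -5.21 and -3.32, then -2.13, -1.40 and -8.10. SVZ replicate C was not well above background and was the lowest array of all, while the other SVZ arrays were the highest, so the difference of 1.01 had an SE of 1.59; it was 3.12 without that array and 0.48 without hippocampus Sox2-GFP replicate C. Cenpf, a kinetochore protein of G2, differed by 0.38 (SE 0.30) with no overlap.

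Kinesins and genes of the spindle and of cytokinesis had a median difference between regions of 0.61, with 9 of 10 higher in the SVZ, and of 0.40 with 8 of 10 without hippocampus Sox2-GFP replicate C. Racgap1, a part of the complex that sets the cleavage plane, read -1.99, -2.83 and -3.39 on hippocampus Sox2-GFP, -2.16, -2.78 and -2.96 on DCX-DsRed and 0.925, -2.05 and -0.93 on SVZ replicates. Its SVZ arrays were above all DCX-DsRed arrays, and 1 overlapped with hippocampus Sox2-GFP. Means differed by 2.05 between regions (SE 0.74, adjusted p = 0.376) and by 1.95 between SVZ and DCX-DsRed (SE 0.74, adjusted p = 0.285). Kif23, the kinesin of the same complex, differed between regions by 1.84 (SE 0.71, adjusted p = 0.408) with no overlap, and Kif11, the motor that pushes spindle poles apart, by 1.30 (SE 0.66) with overlap.

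Kif4, a kinesin of chromosome arms and of the spindle midzone, departed from the set by its high level in DCX-DsRed cells. It read 0.27, 0.43 and 0.585 on hippocampus Sox2-GFP, 2.39, 2.31 and 1.37 on DCX-DsRed and 1.36, 0.865 and 0.205 on SVZ replicates. DCX-DsRed arrays were above all others, with replicate C (1.370) next to SVZ replicate A (1.356). The difference of hippocampus Sox2-GFP from DCX-DsRed was -1.60 (SE 0.42, adjusted p = 0.0903; 0.00194 to 0.653 over the alternatives). The other Kif4 probe, also well above background on all 9 arrays, gave 0.34 in the hippocampal comparison and 0.95 for SVZ minus DCX-DsRed, against -1.22 on the probe used. Prc1, Hmmr, Kif20a, Nusap1 and Ckap2, which bind or bundle microtubules, differed between regions by 0.19 to 0.94. Without hippocampus Sox2-GFP replicate C, Nusap1 stood at 0.425, Hmmr at 0.08, Prc1 at 0.13, Kif20a at 0.37 and Ckap2 at -0.44. A further Ckap2 probe, well above background on all 9 arrays, gave 2.95 for SVZ minus DCX-DsRed, against -0.64 on the probe used. Between regions it gave 2.87, against 0.64, and further probes of Nusap1 and Kif20a gave 0.23 and 0.41. Kif2c differed by -0.55 (SE 0.90; -1.06 without hippocampus Sox2-GFP replicate C and -0.15 without SVZ replicate C), with DCX-DsRed replicate C at 1.06 and all other arrays from -3.23 to -1.295.

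Other probes of the same genes gave a further reading of each difference. Of the 22 genes with several probes above the same background rule, the sign was the same on all probes for 20 in the region comparison, with Bub3 and Cdc25b as the exceptions. It was the same for 10 of 22 in the hippocampal comparison and for 14 of 22 between SVZ and DCX-DsRed.

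The wider list of mitosis genes had medians in the same order of the groups. Of 76 further genes, 70 were tested, and 62 had a higher mean in SVZ than in hippocampus Sox2-GFP, with a median difference of 0.82. Anln alone was called there (0.398% of all genes), and 21 of the 70 stood apart with the SVZ higher (8.83% of all genes) and 1 lower (8.1%). Between hippocampus Sox2-GFP and DCX-DsRed 18 were above 0 (median -0.44), with Hmgb2 called higher and Anln and Stmn1 called lower (3.17% of all genes called). Groups stood apart there for 4 higher (11.4% of all genes) and 17 lower (13.3%). Between SVZ and DCX-DsRed 43 were above 0 (median 0.58), with Hmgb2 and Ect2 called higher and Anln lower (1.55% of all genes called). Here 12 stood apart with the SVZ higher (10.6% of all genes) and 7 with it lower (10.4%). For this and the other gene lists, counts and median differences are given only with hippocampus Sox2-GFP replicate C included. For the 38 genes, leaving it out took the region median from 0.88 to 0.49 and the hippocampal one from -0.36 to -0.11.

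The called genes do not all act in mitosis alone. Anln, anillin of the cleavage furrow, is also a gene of myelinating oligodendrocytes. It stood at -4.37 ± 0.19 in hippocampus Sox2-GFP, 4.38 ± 0.31 in DCX-DsRed and 0.65 ± 0.79 in SVZ cells (SD, n = 3), and hippocampus Sox2-GFP differed from DCX-DsRed by -8.75 (SE 0.43, adjusted p = 0.000175). The SVZ differed from hippocampus Sox2-GFP by 5.02 (SE 0.43, adjusted p = 0.00751) and from DCX-DsRed by -3.73 (SE 0.43, adjusted p = 0.0105). Summed levels of the myelin list, given above, had the same order of DCX-DsRed, SVZ and hippocampus Sox2-GFP in their highest values, and its part was not tested. Stmn1, a microtubule protein that is also abundant in young neurons, differed by -4.46 in the hippocampal comparison (SE 0.90, adjusted p = 0.0395). The newborn neuron list (7 of 8 tested) stood at 1.13 to 2.35 in hippocampus Sox2-GFP, 3.69 to 3.89 in DCX-DsRed and 1.86 to 4.54 in SVZ cells, with 0 called (2, 2 and 1 at an unadjusted p under 0.05 in the 3 comparisons).

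Hmgb2, a chromatin protein of dividing cells, stood at 2.01 ± 0.41 in hippocampus Sox2-GFP, 0.24 ± 0.18 in DCX-DsRed and 4.02 ± 0.19 in SVZ cells. Against DCX-DsRed it rose by 1.76 in hippocampus Sox2-GFP (SE 0.32, adjusted p = 0.0283) and by 3.78 in the SVZ (SE 0.32, adjusted p = 0.00323). DCX-DsRed was its lowest group, as it was for 9 of the 38 members. Ect2, which starts the cleavage furrow with Racgap1, was above background on 0 of the 3 DCX-DsRed arrays and was at least 4.29-fold higher in SVZ cells in this processing (adjusted p = 0.0254).

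Genes of S phase had medians near those of all genes. The 34 DNA replication genes had median differences of 0.04 between regions, -0.11 between hippocampus Sox2-GFP and DCX-DsRed and 0.08 between SVZ and DCX-DsRed. Limma called 0, 0 and 1 of the 34 (0.398%, 3.17% and 1.55% of all genes), and 3, 6 and 4 had an unadjusted p under 0.05. The 1 called was Chaf1a, a histone chaperone, at 1.27 ± 0.19 in SVZ and -2.20 ± 0.31 in DCX-DsRed cells (SE 0.44, adjusted p = 0.0139). The 13 core genes of the anaphase-promoting complex, kept through the cycle, had medians of 0.20, -0.11 and 0.18 in the same order, with 0 called (1, 0 and 4 at an unadjusted p under 0.05). The 19 genes that hold back the cycle, such as the CDK inhibitors, had medians of 0.54, -0.21 and 0.27, also with 0 called (3, 3 and 2). The difference between these lists and the mitosis genes was not tested.

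Marker lists of other cells were summed in the same way. Transit-amplifying progenitor genes (5 of 7 tested) had summed levels of 2.63 to 2.72 in hippocampus Sox2-GFP, 2.03 to 2.55 in DCX-DsRed and 2.64 to 3.46 in SVZ cells, with 0 called in each comparison (0 at an unadjusted p under 0.05). Radial glia or astrocyte genes (9 of 9) stood at 5.29 to 6.79, 5.41 to 5.72 and 6.64 to 7.55 in the same order, with 0 called (0, 0 and 2 at an unadjusted p under 0.05 between regions, in the hippocampus and between SVZ and DCX-DsRed). Oligodendrocyte precursor genes (7 of 7), which include dividing cells of the adult brain, stood at 3.11 to 3.40, 4.49 to 4.79 and 3.21 to 3.44, with 0 called (2, 4 and 1). Microglial genes (8 of 8) ranged from 2.50 to 2.71, 2.33 to 2.60 and 1.73 to 2.41, with 0 called (2, 1 and 1), and vascular genes (8 of 8) from 1.75 to 3.22, 1.92 to 2.17 and 1.77 to 3.32, with 0, 2 and 1 called. In the region comparison all 6 tested choroid plexus genes were lower on each SVZ array than on each hippocampus array, and 2 of them, Ttr and Clic6, were called. The part of these cells in the level of the mitosis genes was not tested.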

How the data were processed

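The deposited files were scanner tables, 1 for each array. Per the file headers, Agilent Feature Extraction 9.5.1.1 had made the processed signal, a background-subtracted intensity not scaled between arrays; the deposited files also gave mean and background intensity and flags of 0 and 1 for spots. The submitters' processing notes name limma. Control spots, outlier spots and 464 probes were left out (40710 kept). Values were log2 intensity minus the array's 75th percentile, and the brightest probe well above background on at least 3 arrays stood for a gene. One file had altered symbols, so names came from an intact one. Differences were tested with limma 3.58.1 (R 4.3.3) on all 9 arrays, 6 residual degrees of freedom, Benjamini-Hochberg over 24891 genes, threshold 0.05, a script tested on simulated data. Between 80.4% and 88.2% of probes were well above background; 3 arrays a group limit the precision.

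A list's summed level is log2 of its summed signals. A fold given as at least is measured against the lowest signal well above background. The labels do not say that replicates came from separate pools of animals, and p-values therefore cover the spread between arrays, which may be technical. Members and lists were chosen with earlier results of these data known. Array values were given for Mki67, Top2a, Cdk1, Ccnb1, called members and, per role, the largest difference in the hippocampal and the region comparison. Further probes were averaged over spots and set beside the probe used. Alternatives changed background correction, scaling, filter, probe rule, weights, slide and replicate terms and arrays.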

Additional observations from a re-analysis of the deposited data

How the results depend on the processing

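The direction of the median was kept in each comparison under all 23 alternatives: it ranged from -0.512 to -0.11 for hippocampus Sox2-GFP minus DCX-DsRed, from 0.486 to 1.136 for SVZ minus hippocampus Sox2-GFP and from 0.245 to 0.758 for SVZ minus DCX-DsRed. In the same order 7 to 17, 30 to 37 and 22 to 31 of the members were above 0. Some alternatives cannot move a difference and say nothing on its direction. These are fitting only the groups compared, the replicate block and leaving out an array of the group not compared. The count of members called, 0 in each, became 6 with array weights in the first, 3 with slide as a block in the second, and in the third 2 with array weights, 1 with only the groups compared, 1 with slide as a block, 3 with slide as a random block and 0 to 1 when an array was left out. The cause was not tested. Over all genes the first comparison called 790 genes, against 5517 with array weights, 2024 with slide as a block, 0 within slide 3 and 251 to 773 when an array was left out. The second called 99, against 162 with normexp, 50 for probes well above background on all arrays, 173 for the mean of a gene's probes, 343 with array weights, 8 with only the groups compared, 2128 with slide as a block, 0 within slide 3 and 25 to 97 without an array; the median member difference was then 0.486 to 0.997. The third called 385, against 1287 with array weights, 794 and 834 with slide as a fixed or random block, 0 within slide 3 and 49 to 848 without an array. Without hippocampus Sox2-GFP replicate C, a setting chosen after seeing the data for this count, 4 members and not 1 stood apart as higher in the first comparison, as did 21.7% and not 11.4% of all genes. The samples share only a letter: deviations of arrays with the same letter correlated at -0.0442 to 0.1151, and with the letter as a replicate block 489, 13 and 191 genes were called, and 0 members. Of 1029 single values of named genes, 13 crossed the threshold and 50 changed sign without a call in either setting. The 1029 include the settings that cannot move a difference. Signals near background limit Ttk, Cenpa, Aurkb and Bub1. The hippocampal differences of Mad2l1, Ccna2 and Cdk1 also shrank with normexp background correction, as given above. Those of Mki67 and Kif4 stood at -1.64 and -1.58 with it.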
